A study of Mus musculus with 4 samples.

Results

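The genes described here are those of the proteasome, taken as every mouse gene whose symbol starts with Psma, Psmb, Psmc, Psmd, Psme, Psmf or Psmg followed by a digit and that has a probe set with a single gene symbol on the array. The rule matched 56 probe sets of 50 genes, out of 19938 genes with such a probe set, and a gene with several probe sets was read from its brightest one. Of the 50 genes, 48 encode subunits, activators, an inhibitor or assembly chaperones of the proteasome. The other 2, Psmc3ip, which encodes a meiotic recombination protein, and Psme3ip1, match the rule by symbol but belong to none of these classes, and are kept apart below. 47 of the 48 had a level above the background floor on at least 1 array, and Psmb11, the core subunit made in the thymus, lay below it on all 4.

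The proteasome is the main protease of the cytosol and nucleus and degrades proteins tagged with ubiquitin. Its barrel-shaped core particle has outer rings of alpha subunits, which gate the entry, and inner rings of beta subunits, of which Psmb5, Psmb6 and Psmb7 carry the catalytic sites. The regulatory particle caps the barrel: a lid removes ubiquitin, and a base with ATPases unfolds the protein. In cells of the immune system Psmb8, Psmb9 and Psmb10 can take the places of Psmb5, Psmb6 and Psmb7, which gives the immunoproteasome, known for making peptides that suit presentation by class I molecules. Macrophages, the precursors of osteoclasts, are among the cells that make it, and interferon gamma is its best known inducer.

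RNA came from RAW 264.7, an established mouse macrophage-like cell line that forms osteoclasts, the cells that resorb bone, when given RANKL, the cytokine that drives their differentiation. There were 4 groups of 1 array each. The first was transfected with a control vector and left unstimulated, and the second carried that vector and was stimulated for 72 h with 20 ng/ml RANKL and M-CSF, a growth factor of macrophages. The third was transfected with a vector expressing miR-155, a microRNA of activated immune cells, and left unstimulated, and the fourth carried it and was stimulated in the same way. The design text calls the first pair wild-type and the second mis-expressing, whereas the sample descriptions name vectors, and the vector's promoter and whether the cells were pools or clones are not given in the labels. The study asked what miR-155 does in osteoclast differentiation. With 1 array per group there are no replicates, so the differences below have no error of their own and no test, and fewer cells of a type cannot be told apart from less RNA per cell.

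The upstream regions of 4 genes whose levels differed in opposite directions under stimulation are shown first: Psmb8 and Psmb9 of the immunoproteasome, and Psmb5 and Psmb6, whose places they take. Each is the RefSeq window of 300 bases, from 250 before to 50 after the annotated start, in build GRCm38.p6, 5′ to 3′ on the gene's strand. Psmb8 lies at chr17:34197945-34198244 on the plus strand and Psmb9 at chr17:34187281-34187580 on the minus strand. Psmb5 lies at chr14:54617946-54618245 on the minus strand and Psmb6 at chr11:70525107-70525406 on the plus strand. Capitals mark matches, on either strand, to the interferon-stimulated response element core GAAANNGAA, the gamma-activated sequence TTCNNNGAA, the kB core GGGANTTTC, the antioxidant response element core TGACNNNGC or the CCAAT box, and no marked match overlapped another.
Psmb8: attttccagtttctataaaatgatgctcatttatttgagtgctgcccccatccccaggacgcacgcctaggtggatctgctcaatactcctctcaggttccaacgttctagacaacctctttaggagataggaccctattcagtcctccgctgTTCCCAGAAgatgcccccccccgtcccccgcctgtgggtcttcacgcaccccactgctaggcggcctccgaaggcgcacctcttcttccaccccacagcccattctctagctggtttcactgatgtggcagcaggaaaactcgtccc
Psmb9: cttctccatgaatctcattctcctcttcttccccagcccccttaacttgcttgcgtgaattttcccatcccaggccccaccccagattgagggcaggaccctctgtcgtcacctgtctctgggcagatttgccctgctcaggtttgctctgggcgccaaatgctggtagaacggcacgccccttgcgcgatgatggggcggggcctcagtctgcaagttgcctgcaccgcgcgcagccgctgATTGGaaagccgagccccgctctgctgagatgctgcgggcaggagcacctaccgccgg
Psmb5: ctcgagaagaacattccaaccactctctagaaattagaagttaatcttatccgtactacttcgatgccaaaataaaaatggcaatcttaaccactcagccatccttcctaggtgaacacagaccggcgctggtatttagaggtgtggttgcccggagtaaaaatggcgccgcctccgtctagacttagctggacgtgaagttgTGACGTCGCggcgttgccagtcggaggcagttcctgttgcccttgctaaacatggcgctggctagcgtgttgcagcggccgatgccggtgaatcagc
Psmb6: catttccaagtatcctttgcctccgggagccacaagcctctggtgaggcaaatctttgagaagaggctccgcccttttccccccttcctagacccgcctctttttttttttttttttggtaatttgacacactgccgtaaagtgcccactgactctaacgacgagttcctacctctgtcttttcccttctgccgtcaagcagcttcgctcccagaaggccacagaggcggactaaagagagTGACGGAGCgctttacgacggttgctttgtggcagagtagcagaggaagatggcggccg
The capitals in Psmb8 are a gamma-activated sequence at position -97 from the start, and those in Psmb9 a CCAAT box on the opposite strand at -8. The capitals in Psmb5 and Psmb6 are antioxidant response element cores, at -47 and -9. A match is a description of letters, not of a bound site.

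Values are log2 expression levels normalized by the submitters. The array of stimulated control-vector cells stood apart: over all genes above the floor it correlated with the other 3 arrays at 0.908 to 0.937, whereas those 3 correlated with each other at 0.982 to 0.989. It enters the stimulation response of control-vector cells, the vector difference under stimulation and the difference of the responses, while the stimulation response of miR-155 cells and the vector difference without stimulation do not use it. All 6 macrophage markers were above the floor, and 4 of them were over 1.5-fold lower in stimulated than in unstimulated control-vector cells (median of the 6, -2.70) against none in miR-155 cells (median -0.34). Osteoclast markers were over 1.5-fold higher under stimulation in 8 of 8 in control-vector cells (median 6.14) and 7 of 8 in miR-155 cells (median 4.15). Calcr, 1 of the 8, was above the floor only on the stimulated control-vector array (5.71), and was the gene short of 1.5-fold in miR-155 cells. Its place in counts that use that array therefore follows from the filter. Of the markers of other lineages, 2 of 6 for T and B cells, 4 of 4 for fibroblasts and osteoblasts and 2 of 6 for granulocytes and mast cells were above the floor, and none differed by 1.5-fold in any comparison. A pair of gauges of measurement noise was used, neither of them a replicate error. The first, the receptor reference, is the 95th percentile of the absolute difference among probe sets for olfactory and vomeronasal receptors. The other is the disagreement of 2 probe sets for the same gene. The receptor probe sets lie at background level, since the floor of 4.25 is their 95th percentile, whereas subunit genes had a median of 9.29. The share of all genes past the receptor reference was not counted. Counts of subunit genes past it therefore do not set them apart from other genes.

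Proteasome genes were expressed at high levels, with a median of 9.29 over the 47 subunit genes for the mean of the 4 arrays, against 6.62 over the 13545 genes above the floor. Shares and medians of all genes below refer to these 13545. In control-vector cells, stimulation went with lower levels of most subunit genes: 34 of 47 were lower, with a median difference of -0.18 on the log2 scale, against 52.2% of all genes and a median of -0.02. Most of these differences were small. 6 subunit genes were at least 1.5-fold lower (Psmb8, Psmb9, Psmg3, Psma1, Psmb10 and Psmc6), where 15.2% of all genes were, and 1 was at least 1.5-fold higher (Psmd8), where 12.4% were. The share lower was thus not above that of all genes, nor above the 20.9% among genes of the same brightness range, and the share higher was below that of all genes. Relative to equally bright genes the counts came to 3 lower and 3 higher, with a median of -0.10, so the excess of lower over higher genes past 1.5-fold depends on that scaling. 13 of the 47 went past the receptor reference of 0.48, with no share of all genes to set beside this count. In miR-155 cells the responses were smaller, with a median of 0.00, 25 subunit genes higher and 22 lower, against 45.1% and 54.9% of all genes. There Psmd10 was at least 1.5-fold higher, where 3.43% of all genes were, and Psmb9 at least 1.5-fold lower, where 3.74% were. 6 of the 47 went past the receptor reference of 0.41.

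**Figure D1:**
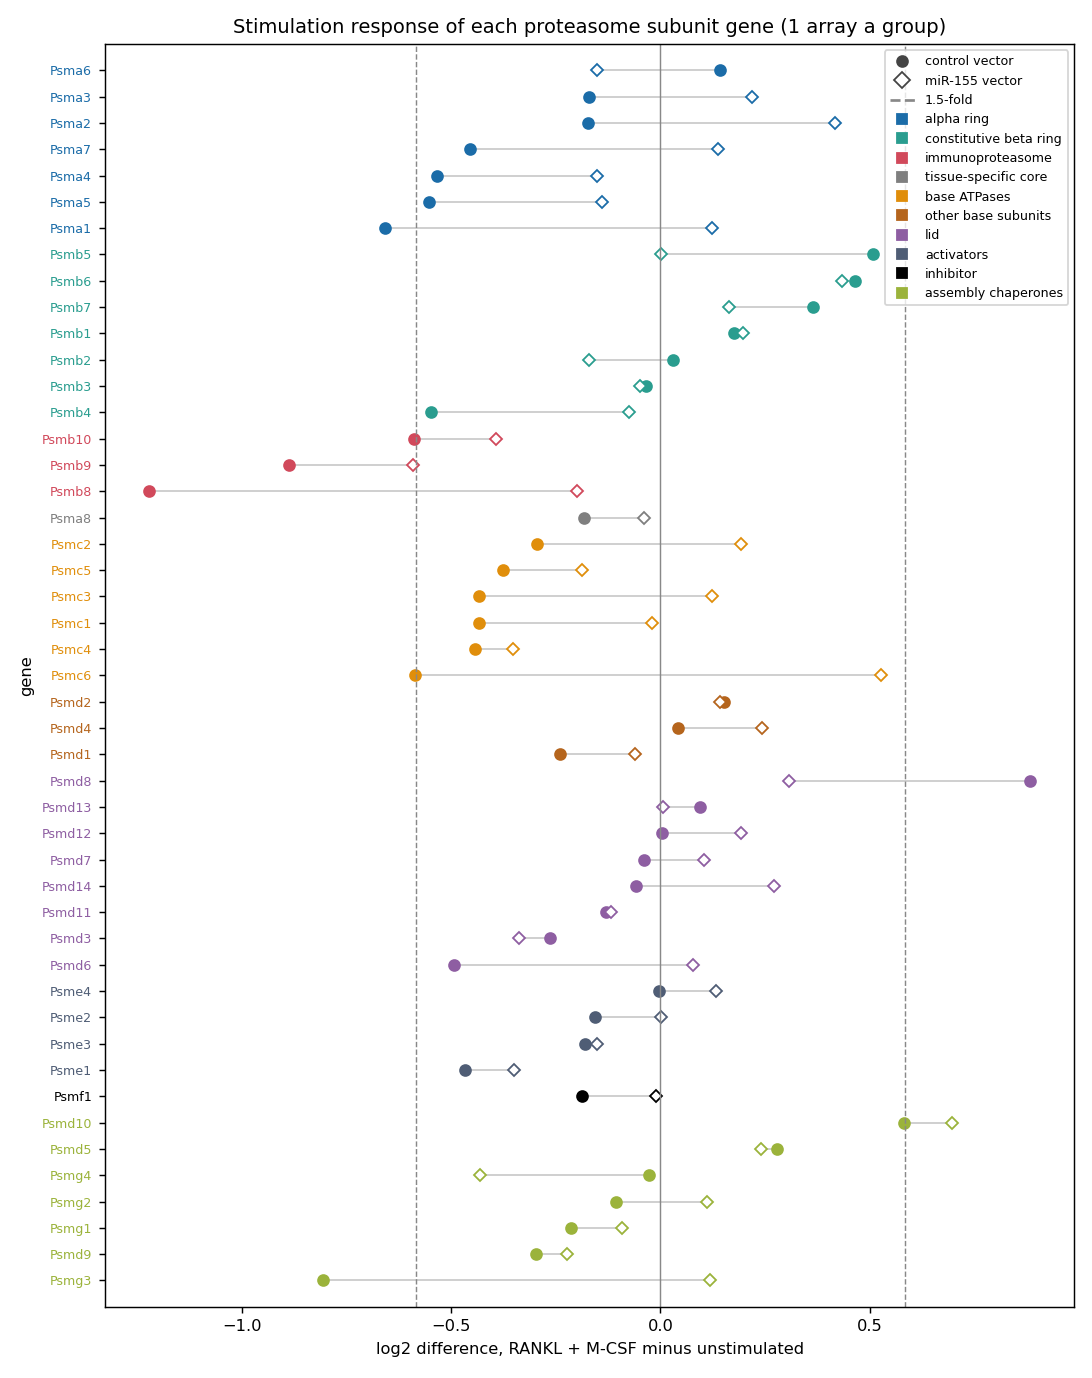
Stimulation response of each of the 47 subunit genes above the floor (log2 level with RANKL and M-CSF minus unstimulated; 1 array a group, no error bars), with filled circles for control-vector cells and open diamonds for miR-155 cells, coloured by class. Dashed lines mark 1.5-fold; Psmb8, at -1.22 in control-vector cells, is the lowest point and Psmd8, at 0.88, the highest.

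The 3 immunoproteasome genes gave the lowest class median in control-vector cells, -0.89. All 3 were at least 1.5-fold lower with stimulation, Psmb10 only just. That far lower were 15.2% of all genes and 20.9% of genes of the same brightness range. Psmb8, the immune form of the chymotrypsin-like subunit, had log2 levels of 8.56 in unstimulated and 7.34 in stimulated control-vector cells, and of 8.67 and 8.47 in unstimulated and stimulated miR-155 cells. The stimulated control-vector array was the low one, and the other 3 lay within a narrow band. Psmb8 was thus 2.33-fold lower with stimulation in control-vector cells (log2 difference -1.22) and 1.15-fold lower in miR-155 cells (-0.20).

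Psmb9, the immune form of the caspase-like subunit, had levels of 7.64 and 6.76 in control-vector cells and 8.26 and 7.67 in miR-155 cells, unstimulated first. It was lower with stimulation in both, by 1.85-fold (-0.89) and 1.51-fold (-0.59), and each miR-155 array was above its control-vector counterpart. For Psmb10, the immune form of the trypsin-like subunit, the levels were 8.12, 7.54, 8.50 and 8.11 in the same order. Its differences, -0.59 and -0.39, had the same direction in both vectors. Psmb10 in control-vector cells and Psmb9 in miR-155 cells lay just past 1.5-fold, and under each of 3 other scalings of the arrays they came to -0.54 to -0.55 and to -0.55 to -0.58, short of it. The macrophage markers given above were lower on the same stimulated control-vector array, and their part in the immunoproteasome values was not tested.

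The catalytic subunits whose places these genes take were higher in the same cells. Psmb5 had levels of 8.93 and 9.44 in unstimulated and stimulated control-vector cells and of 9.17 and 9.18 in miR-155 cells, so that only the stimulated control-vector array stood above the others. The differences were 0.51 and 0.00. Psmb6 had levels of 9.85, 10.31, 9.90 and 10.34 in the same order, high on both stimulated arrays (0.46 and 0.43). Psmb7 had levels of 10.90, 11.26, 10.77 and 10.94, with differences of 0.37 and 0.16. None of these reached 1.5-fold in either vector, except that Psmb5 came to 0.60 in control-vector cells once the median of equally bright genes was subtracted. In control-vector cells Psmb5 passed the receptor reference of 0.48, whereas Psmb6 and Psmb7 stayed within it. In miR-155 cells Psmb6 passed the reference of 0.41, and Psmb5 and Psmb7 stayed within it.

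The 2 genes of each pair differed in opposite directions in control-vector cells. By arithmetic, the change of the immune form relative to the constitutive form is then larger than that of either gene alone. The ratio of Psmb8 to Psmb5 was 3.32-fold lower on the stimulated than on the unstimulated control-vector array (log2 change -1.73), and 1.15-fold lower between the miR-155 arrays (-0.20). The ratio of Psmb9 to Psmb6 was 2.56-fold lower (-1.35) and 2.03-fold lower (-1.02). For Psmb10 over Psmb7 the changes were -0.95 and -0.56. The first pair was thus the one in which the vectors were furthest apart, by 1.53 on the log2 scale, against 0.33 and 0.40 for the others. A ratio of array signals shows that the 2 genes of a pair changed unequally and not how many particles of either kind were made.

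**Figure D2:**
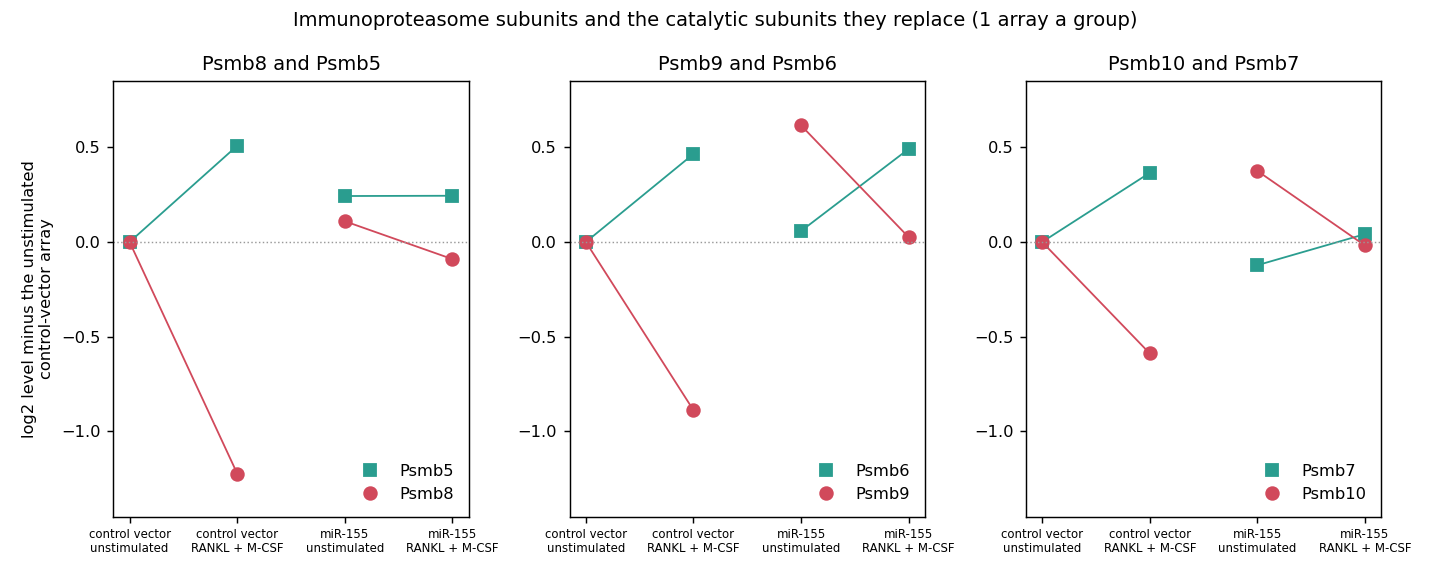
Log2 level of each immunoproteasome gene (circles) and of the catalytic gene whose place it takes (squares), minus its own level on the unstimulated control-vector array, on the 4 arrays (1 a group, no error bars). In control-vector cells the circles lie at -1.22, -0.89 and -0.59 with stimulation while the squares lie at 0.51, 0.46 and 0.37.

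The other beta subunits, which shape the inner ring without a catalytic site, did not share one direction. In control-vector cells Psmb1 (0.18) and Psmb2 (0.03) were slightly higher, Psmb3 (-0.03) slightly lower and Psmb4 lower by 1.46-fold (-0.55). The median of the 7 constitutive beta subunits was 0.18 in control-vector cells and 0.00 in miR-155 cells, and none reached 1.5-fold in either.

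The alpha ring went the other way in control-vector cells, with 6 of 7 genes lower and a median of -0.46. Psma1 had levels of 9.96 and 9.31 in unstimulated and stimulated control-vector cells and of 9.98 and 10.11 in miR-155 cells, so that the stimulated control-vector array alone was low. Its differences were -0.66 and 0.12. Psma5 (-0.55), Psma4 (-0.53) and Psma7 (-0.46) were lower by less than 1.5-fold, Psma2 and Psma3 were at -0.17 each, and Psma6 was higher by 0.14. In miR-155 cells the median of the ring was 0.12, with 4 genes higher and 3 lower, and Psma2 was the furthest from 0 at 0.42. The Psma1 difference in control-vector cells came to -0.56, short of 1.5-fold, after subtraction of the median of equally bright genes.

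All 6 ATPases of the base, which form the ring that unfolds the substrate, were lower with stimulation in control-vector cells, between -0.59 and -0.30 with a median of -0.43. In miR-155 cells 3 were higher and 3 lower, with a median of 0.05. Psmc6 had levels of 8.94 and 8.36 in control-vector cells and of 8.52 and 9.05 in miR-155 cells, unstimulated first. It was the subunit gene with the widest gap between the responses, lower in one vector (-0.59) and 1.44-fold higher in the other (0.53). Both miR-155 arrays differed from their control-vector counterparts, in opposite directions. Psmc4 was lower in both vectors (-0.44 and -0.35), as was Psmc5 (-0.38 and -0.19), and Psmc3 was -0.43 and 0.12. Psmc6 lay just past 1.5-fold in control-vector cells and came to -0.55 with arrays centred on their medians and to -0.57 relative to equally bright genes.

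The remaining base subunits Psmd1, Psmd2 and Psmd4, the last a ubiquitin receptor, stayed within -0.24 and 0.24 in both vectors. Among the 8 lid genes the median was -0.05 in control-vector cells and 0.09 in miR-155 cells. Psmd8 was the exception, with levels of 10.48 and 11.36 in control-vector cells and of 10.61 and 10.92 in miR-155 cells. It was highest on the stimulated control-vector array, 1.85-fold above the unstimulated one (0.88), against 1.24-fold (0.31) in miR-155 cells. Psmd6 was lower by 1.41-fold in control-vector cells (-0.49) and near 0 in miR-155 cells (0.08). Psmd14, the lid enzyme that cuts ubiquitin chains from the substrate, was -0.06 and 0.27.

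Of the activators, which open the core in place of the regulatory particle, Psme1 had levels of 9.79 and 9.32 in control-vector cells and 9.93 and 9.58 in miR-155 cells. It was lower with stimulation in both, by 1.38-fold (-0.47) and 1.28-fold (-0.35). Its partner Psme2, which interferon gamma also induces, differed by -0.16 and 0.00, and Psme3, the nuclear activator, by -0.18 and -0.15. A further probe set that matches both Psme2 and its near copy Psme2b was left out by the rule and had levels of 7.28, 6.97, 6.94 and 7.38 in the order used above, so the array may not fully separate the pair. Psme4 and the inhibitor Psmf1 stayed within -0.19 and 0.13.

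Assembly chaperones, which build the particle and leave it, differed among themselves. Psmd10 (gankyrin), a chaperone of the base, had levels of 8.95 and 9.53 in control-vector cells and of 8.35 and 9.05 in miR-155 cells. Both stimulated arrays were above their unstimulated counterparts, by 0.58 and by 0.70 (1.62-fold), and both miR-155 arrays below the control-vector ones. The first of these lay just short of 1.5-fold (log2 0.5832 against 0.585), and passed it at 0.62 and 0.66 under 2 other scalings. Psmg3, a chaperone of the alpha ring, had levels of 6.47, 5.66, 6.28 and 6.40 in that order, low on the stimulated control-vector array alone (-0.81 and 0.12). Psmg4, its partner, had levels of 6.58, 6.55, 7.21 and 6.78, high on the unstimulated miR-155 array, with differences of -0.03 and -0.43. Psmd5 was higher in both vectors (0.28 and 0.24) and Psmd9 lower in both (-0.30 and -0.22).

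The 2 responses share no array. Over the 47 subunit genes 11 were higher in both vectors, 20 lower in both, 14 lower in control-vector and higher in miR-155 cells, and 2 the reverse. The absolute response was larger in control-vector cells for 32 of the 47. The shares of all genes for these counts were not computed, so the counts do not set subunit genes apart. Over all genes, too, more passed 1.5-fold in control-vector cells (12.4% higher and 15.2% lower) than in miR-155 cells (3.43% and 3.74%). Pearson's r between the responses was 0.474 over these genes, which share 4 arrays and their normalization and are not independent points. For scale, cytosolic ribosomal protein genes (56 above the floor) had medians of 0.06 and -0.08 with no gene past 1.5-fold in either vector, and subunits of the V-ATPase (20), the proton pump of osteoclasts, had medians of 1.48 and 0.46.

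**Figure D3:**
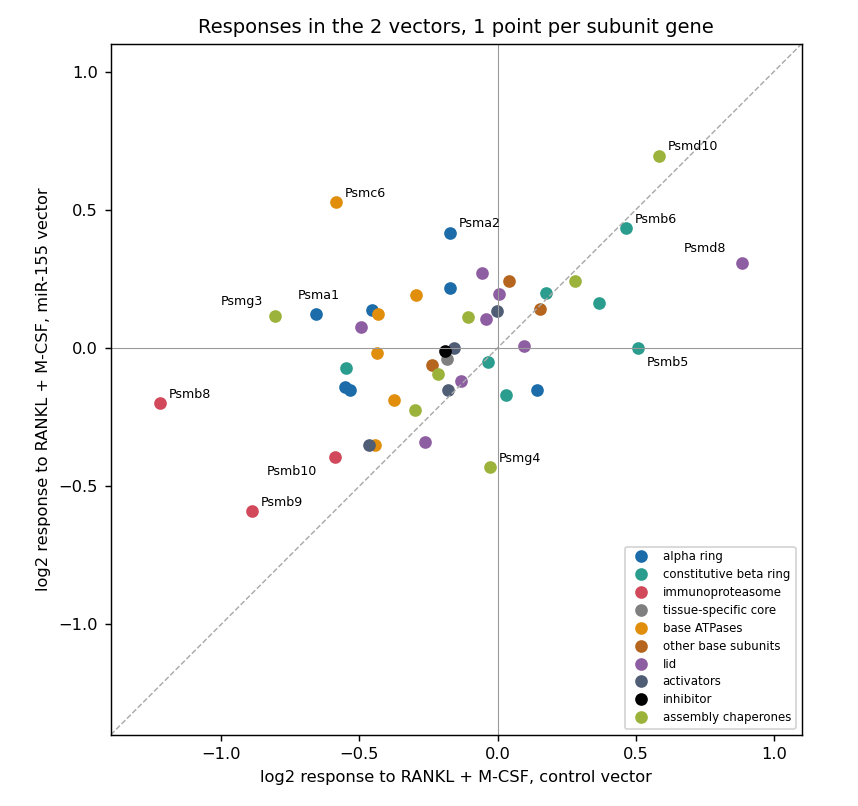
Stimulation response in miR-155 cells against that in control-vector cells (both log2 differences), 1 point for each of the 47 subunit genes, coloured by class, with a dashed line of equal responses. The immunoproteasome genes lie at the lower left, Psmd8 at the right and Psmc6 at the upper left (-0.59, 0.53).

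Comparison of the vectors without stimulation gave small differences for most subunit genes. The median over subunit genes was 0.09 against 0.00 over all genes, with 32 of 47 higher in miR-155 cells, where 49.8% of all genes were. On the side of miR-155, Psmg4 (0.63) and Psmb9 (0.62) were higher by 1.5-fold or more, where 1.18% of all genes were, and Psmd10 (-0.60) was at least 1.5-fold lower, where 3.15% were. Psma4 (0.56), Psmb2 (0.44) and Psmb10 (0.38) followed at the upper end, and Psmc6 (-0.42), Psma3 (-0.27), Psme4 (-0.25) and Psmd14 (-0.24) at the lower. Macrophage markers had a median of -0.11 in this comparison, and 2 of 6 were at least 1.5-fold lower (Mpeg1, -1.19, and Adgre1, -0.91). Osteoclast markers had a median of -0.25. Of these 8, 2 were at least 1.5-fold lower (Ctsk, -2.45, and Atp6v0d2, -0.97) and 1 was higher (Ocstamp, 0.68). The part of these markers in the subunit values was not tested. 7 of the 47 went past the receptor reference of 0.37. The immunoproteasome genes were all higher in miR-155 cells, with Psmb8 close to the control at 0.11.

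Under stimulation, miR-155 cells had higher levels of most subunit genes than control-vector cells: 39 of 47 were higher, with a median of 0.24, against 47.5% of all genes and a median of -0.03. 10 were at least 1.5-fold higher, or 21.3%, where 12.4% of all genes and 17.6% of the 5529 genes of the same brightness range were. None was at least 1.5-fold lower, where 13.6% of all genes were. In this comparison miR-155 cells had 4 of 6 macrophage markers higher by 1.5-fold or more (median 1.83) and 8 of 8 osteoclast markers lower by as much (median -1.97), and their part in the subunit values was not tested. The 8 include Calcr, which was above the floor only on the stimulated control-vector array. The 10 subunit genes included 4 of the 7 alpha subunits, Psma7, Psma4, Psma1 and Psma2, and the class median was 0.74. Psma7 had levels of 9.43, 8.98, 9.80 and 9.94 in the order control-vector unstimulated and stimulated, then miR-155 unstimulated and stimulated. Both miR-155 arrays exceeded both control-vector arrays, and the difference under stimulation was 1.95-fold (0.96).

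Psma4 had levels of 9.18, 8.65, 9.74 and 9.59, again with both miR-155 arrays above both control-vector arrays, and differences between the vectors of 0.56 without and 0.94 with stimulation. Psma2 had 8.82, 8.65, 8.97 and 9.39, with its highest level on the stimulated miR-155 array and a difference of 0.74 there. Psmb8 (1.13) and Psmb9 (0.91) were 2.19-fold and 1.88-fold higher in stimulated miR-155 cells, and Psmb10 (0.57) lay just short of 1.5-fold, which it passed when quantile normalized again (0.59) and relative to equally bright genes (0.63). Psmg3 (0.74), Psmc6 (0.69), Psmc3 (0.64) and Psmd6 (0.60) made up the rest of the 10. At the lower end stood Psmd10 (-0.49), Psmd8 (-0.44), Psmb7 (-0.32), Psmb5 (-0.26) and Psma6 (-0.19). This comparison shares the stimulated control-vector array with the response in control-vector cells, and that array held the lowest of the 4 levels for 30 of the 47 genes. The share of all genes lowest on that array was not counted, so this count does not set subunit genes apart.

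**Figure D4:**
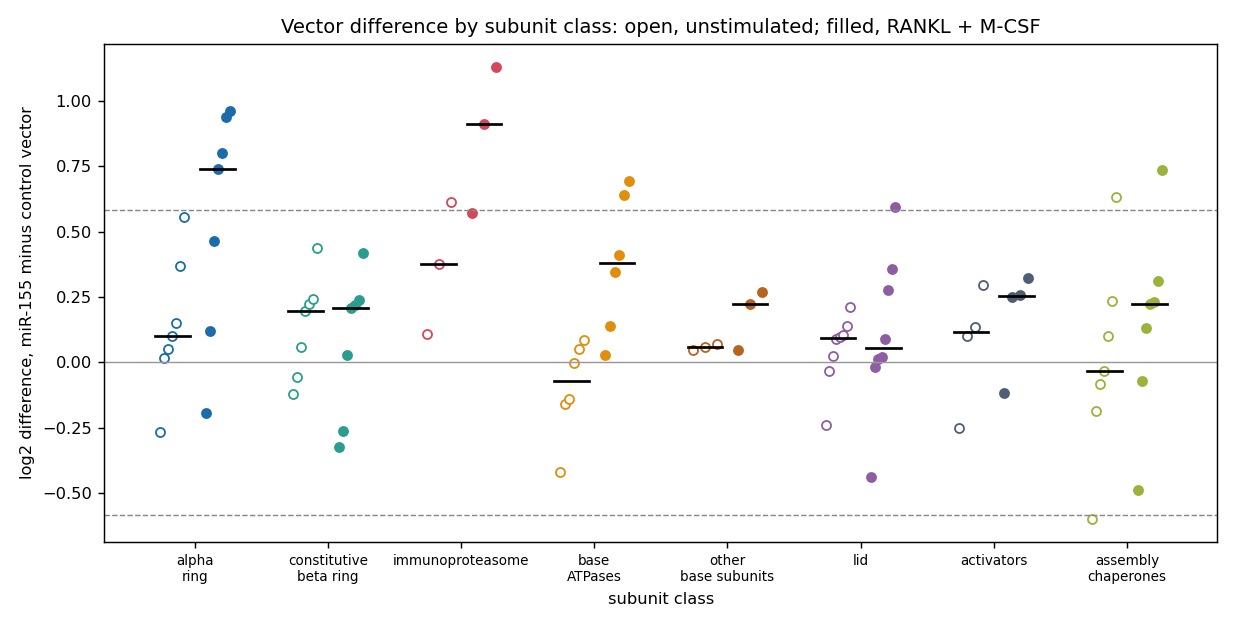
Difference between miR-155 and control-vector cells (log2) for each subunit gene, by class, with open circles for unstimulated and filled circles for stimulated cells (1 array a group) and bars at class medians. With stimulation the alpha ring (median 0.74) and the immunoproteasome (0.91) lie above the constitutive beta ring (0.21) and the lid (0.06); dashed lines mark 1.5-fold.

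The response in miR-155 cells minus that in control-vector cells was above 0 for 35 of 47 subunit genes and for 47.2% of all genes. The medians were 0.16 and -0.03. 6 subunit genes, or 12.8%, were at least 1.5-fold above 0, where 14.5% of all genes and 18.6% of genes of the same brightness range were. The share was thus not above either. None was at least 1.5-fold below 0, where 13.9% and 17.9% were. The 6 were Psmc6 (1.11), Psmb8 (1.02), Psmg3 (0.92), Psma1 (0.78), Psma7 (0.59) and Psma2 (0.59). Psma7 and Psma2 fell short of 1.5-fold with arrays centred on their medians (0.57 and 0.56), which left 4 genes, and relative to equally bright genes (0.58 each). The macrophage markers had a median of 2.42 and the osteoclast markers of -1.65 in the same comparison. Of the subunit genes, Psmc6, Psmb8, Psmg3 and Psma1 went past the receptor reference of 0.64. The base ATPases were all above 0, with a median of 0.45, and the alpha ring had a median of 0.41. Psmd8 (-0.58), Psmb5 (-0.51), Psmg4 (-0.40), Psma6 (-0.29) and Psmb2 (-0.20) were the lowest.

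The only test that 4 arrays allow is an additive limma fit with terms for stimulation and miR-155, whose error has 1 residual degree of freedom. That error comes from the difference of the responses described above. A gene whose responses differ between the vectors, such as Psmb8 or Psmc6, is therefore less readily called. It called 0 of 13545 genes (0.0%) for stimulation and 0 (0.0%) for miR-155 at an adjusted p of 0.05, with lowest adjusted p of 0.057 and 0.89 by limma. Unadjusted, 1025 genes (7.57%) and 523 genes (3.86%) had p under 0.05. Among the subunits these were Psmd10 (higher) and Psmb9 (lower) for stimulation, and Psma4 and Psmb9 (higher) and Psmd10 (lower) for miR-155. The lowest adjusted p of a subunit gene by limma was 0.647 for stimulation and 0.89 for miR-155. No subunit gene is therefore called as changed by either term, which does not show that none changed.

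5 subunit genes had more than 1 probe set, and the differences from probe sets of the same gene (Psma3, Psma5, Psmb3, Psmc1 and Psmd2) ranged over at most 0.21 in the stimulation response of control-vector cells and 0.20 in that of miR-155 cells. Across 260 bright genes with 2 probe sets the median disagreement in these responses was 0.0574 and 0.0431, and its 95th percentile 0.41 and 0.28. This gauge covers genes with a mean log2 level over 8 only. Of such subunit genes, Psmb8 and Psmd8 were among those beyond it in control-vector cells, and Psmd10 and Psmc6 among those beyond it in miR-155 cells, while Psmb9 and Psmg3 are too dim for it.

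Partners of the proteasome outside the naming rule, of which 8 of 10 listed had a probe set, had a median of -0.19 in control-vector cells. A single gene of the 8 passed 1.5-fold, downward, where 15.2% of all genes were that far lower, so the count is near the background. It was Uchl5, a deubiquitinase bound to the regulatory particle, with levels of 8.82 and 7.97 in control-vector and 8.76 and 9.001 in miR-155 cells. It was low on the stimulated control-vector array alone (-0.84 against 0.24). Usp14, the other such deubiquitinase, was -0.37 and 0.06, and Ecpas, a scaffold that holds core and regulatory particle together, -0.44 and 0.06. Ube3c, a ubiquitin ligase of the proteasome, was -0.29 and -0.12, Txnl1, a thioredoxin-like protein bound to the regulatory particle, 0.29 and -0.22, Akirin2, which brings the particle into the nucleus, 0.10 and -0.07, and Sem1, a small lid subunit, 0.08 and 0.04. Without stimulation, the miR-155 cells differed from the control by 0.46 for Txnl1 and by -0.40 for Ecpas.

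Of 8 of 14 listed genes for ubiquitin and shuttling, 1 was at least 1.5-fold higher and 1 lower in each vector. Over all genes the shares were 12.4% and 15.2% in control-vector and 3.43% and 3.74% in miR-155 cells, so that 1 of 8 is near the background in the former. Sqstm1, which carries ubiquitin-tagged cargo to autophagosomes, had levels of 11.61, 12.81, 10.96 and 11.95, high on both stimulated arrays (1.20 and 0.99). Ubqln4, a shuttle factor, was lower in both (-0.88 and -0.77), and the related Ubqln2 was -0.29 and -0.31 and Ubqln1 0.18 and 0.01. Vcp, the ATPase that extracts ubiquitin-tagged proteins, was -0.16 and 0.10, and its cofactors Nploc4 and Ufd1 were 0.28 and -0.20, and 0.17 and 0.01.

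Among 9 of 11 listed regulators of proteasome genes, 4 were at least 1.5-fold lower and 1 higher with stimulation in control-vector cells, and 1 was lower in miR-155 cells. Over all genes 15.2% were that far lower and 12.4% higher in control-vector cells, and 3.74% lower in miR-155 cells, and a list of 9 chosen genes is too short to read more from the counts. Irf8, an interferon regulatory factor known to hold back osteoclast formation, had levels of 8.54, 6.21, 8.87 and 8.01, with the stimulated control-vector array far below the others (-2.33 and -0.86). Irf1, the factor best known for inducing immunoproteasome genes, had 6.39, 5.73, 6.52 and 6.34, and was low on that array too (-0.65 and -0.18). Nfe2l2, the antioxidant response factor, differed by -1.34 and -0.24, and Keap1, which targets it for degradation, by -0.65 and -0.27. Nfe2l1, the factor that drives subunit genes when the proteasome is impaired, had 8.62, 8.83, 8.25 and 8.01, lowest in stimulated miR-155 cells, with a difference from the stimulated control vector of -0.82. Ngly1, an enzyme that processes the Nfe2l1 protein, was 0.73 and 0.13. Mafg, a partner of these factors, was -0.13 and -0.41, and Nlrc5, the activator of class I genes, -0.31 and -0.29.

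Class I antigen processing genes, 8 of 10 listed, had a median of -0.29 in control-vector cells, where 2 were lower by 1.5-fold or more, and of -0.04 in miR-155 cells, where none was. Over all genes 15.2% and 3.74% were that far lower, so neither count stands far from the background for a list of 8. Erap1, which trims peptides in the endoplasmic reticulum, had levels of 8.52, 6.52, 8.49 and 8.46, low on the stimulated control-vector array alone (-2.00 and -0.03). Tapbp, which loads peptides onto class I molecules, was -0.64 and -0.41. Tap2, a subunit of the peptide transporter, was higher (0.52 and 0.21). The chaperones of class I folding were at -0.51 and -0.04 (Pdia3), -0.37 and 0.01 (Canx) and -0.07 and -0.11 (Calr). Tap1, the other transporter subunit, shares 275 bases of its promoter window, chr17:34187306-34187605 on the plus strand, with the Psmb9 window printed above, since the genes start head to head. Tap1 had levels of 7.52, 7.31, 7.82 and 7.53, and differed by -0.21 and -0.29 where Psmb9 differed by -0.89 and -0.59.

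RefSeq windows were found for 40 of the 48 subunit genes (43 windows) and compared with all 32851 windows of that length. The Ets core CCGGAAG, on either strand, was in 34.9% of subunit windows and 8.86% of all windows, in 14 subunit genes and none of the immunoproteasome ones. The GC box GGGCGG was in 55.8% and 35.7%, the interferon-stimulated response element core in 16.3% and 8.56% and the E-box CACGTG in 9.3% and 7.15%. The antioxidant response element core was in 14.0% and 12.4%, the CCAAT box in 32.6% and 37.4%, the gamma-activated sequence in 6.98% and 8.3%, and the kB core in 2.33% and 1.11%. Windows with the interferon-stimulated response element core belonged to Psmb3, Psmb4, Psmc2, Psmd4, Psmd9, Psme1 and Psmg4, and those with the gamma-activated sequence to Psmb8, Psmd2 and Psmg1. The antioxidant response element core was in Psmb5, Psmb6, Psmc6, Psmd12, Psmd9 and Psme4, whose responses in control-vector cells ran from -0.59 (Psmc6) to 0.51 (Psmb5).

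The genes matched by name only are given for completeness. Psmc3ip had levels of 6.09, 5.28, 6.23 and 6.33, low on the stimulated control-vector array (-0.82 and 0.10). Psme3ip1 differed by 0.42 and 0.06. Psma8, the alpha subunit made in the testis, lay between 6.04 and 6.43, above the floor of 4.25, and Psmb11 between 3.38 and 3.52, below it.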

How the data were processed

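Total RNA (100 ng) from 4 cultures was labelled for the Affymetrix Mouse Gene 1.0 ST array, per the labels. The deposited table holds log2 expression values for 35557 probe sets, and per the submitters' processing notes RMA and Partek were used; versions and build were not given in the sources used here. Values were used as deposited. Probe sets were named through the platform annotation: 21789 had 1 gene symbol, 1621 several and 12147 none. Each gene was read from its brightest probe set by mean over the arrays. Genes were kept when their highest array exceeded 4.25, the 95th percentile of 1210 olfactory and vomeronasal receptor probe sets. Differences of log2 values past 1.5-fold (0.585) were counted, with no test. An additive model (limma 3.58.1, R 4.3.3) was fitted to 13545 genes with Benjamini-Hochberg adjustment, and the steps were tested on simulated data. The simulated stimulation response was the same in both vectors, apart from small random noise. There 47 of 50 log2 changes of 0.5 were called, and 9 of 13345 unchanged genes. This checks the steps and not the power in the real arrays, where the responses differ between the vectors. The rule for genes to name was Psmb5 to Psmb10, Psme1 to Psme3, the 5 highest and 5 lowest subunits of each comparison, any other subunit by class, and the 4 largest differences of each associated list in each comparison; the latter genes are given mostly by their stimulation responses. The members, lists and motifs were chosen with earlier results of these data known. The number of arrays limits the precision. Array scaling, probe set choice, floor and fold threshold were varied.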

Additional observations from a re-analysis of the deposited data

Results flagged for a closer look

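Psmc6, an ATPase of the base, was the only subunit gene whose responses had opposite signs in the 2 vectors with both past the receptor reference of their comparison. The response in miR-155 cells (0.53) exceeded that in control-vector cells (-0.59) by 1.11 on the log2 scale. With 1 array per group this difference was not tested, and its cause was not tested.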

How the results depend on the processing

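Of 115 summary values recomputed under other settings, 86 stayed close to those reported and 29 moved. A change of sign of a median was counted as a move. Of 600 values of 24 named subunits, 6 moved by over 0.1 and 0 of the called ones changed sign, with a largest move of 0.174. The fold threshold moved the counts most. At a log2 threshold of 0.32, the subunits higher and lower were 5 and 16 for the response in control-vector cells, 4 and 6 in miR-155 cells, 6 and 2 for the vectors without stimulation, 18 and 3 with it, and 15 and 3 for the difference of the responses. At 2-fold, they were 0 and 1, 0 and 0, 0 and 0, 1 and 0, and 2 and 0. With arrays centred on their medians, 2 subunits were higher in control-vector cells, 0 lower in miR-155 cells and 1 below 0 in the difference of the responses. Renormalizing by quantiles left 0 lower in miR-155 cells. Relative to equally bright genes, 3 were higher and 3 lower in control-vector cells and 0 lower in miR-155 cells. The median response in control-vector cells, -0.18, came to -0.14 with centring and to -0.10 relative to equally bright genes. For stimulation, limma called 2 of all genes with an intensity trend, 2 with centring, 2 with quantiles and 1 with mean probe sets, against 0; 0 were subunits. No paired analysis was possible because each group has 1 array, and no replicate could be left out. The cause of these changes was not tested. With 1 array a group, the spread between cultures is unknown.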
